A study of Mus musculus with 2 samples.

Results

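The cluster from miR-379 to miR-410 is a run of miRNA precursors on mouse chromosome 12, and 35 of its mature miRNAs were followed here in whole brain. The members are the miRNAs without a star in the study's list of detected miRNAs whose number belongs to the cluster. They make up 35 of 405 such names, of 558 names in all, and come from 29 precursors. Of the 33 numbers searched, 4 had no member (miR-758, miR-494, miR-679 and miR-654). A member was counted as all tags, meaning distinct read sequences, that share the first 18 nucleotides of its named tag. The members lie within 34720 bases of the plus strand (mm9, chr12:110947275-110981994). Of the 35, 29 fall in an annotated miRNA gene of that strand, 5 lie where only the other strand carries an annotated miRNA gene, and miR-668 lies in none. The long noncoding gene Mirg holds 10 of them, 8 in its introns and miR-377 and miR-410 on its exons.

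Small RNAs came from brains of C57BL/6J males, mice of an inbred strain, in 1 young library (5 months) and 1 old library (24 to 25 months). Each library joined the cDNA libraries of 2 mice, made from 10 µg of total RNA and a gel fraction of 18 to 30 nucleotides. The young library held 4523267 reads and the old library 6658732, and levels are given as RPM, reads scaled to a library of 1000000 reads. With 1 library per age there is no replicate error, so every interval and p-value below covers the counting of reads alone and compares 2 libraries, not 2 ages. Reads copied by PCR are not independent molecules. In whole tissue, fewer cells that make a miRNA and less of it per cell cannot be told apart.

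The precursors of this cluster lie on an imprinted stretch of the Dlk1-Dio3 region and are transcribed from the maternal chromosome as part of long noncoding RNAs. In neurons the cluster is known as a target of the activity-dependent factor Mef2. miR-134 limits dendritic spine growth through Limk1, miR-485 acts on the synaptic vesicle protein SV2A, and miR-329 and miR-381 take part in dendrite outgrowth. Adenosines in some of its precursors are deaminated to inosine by ADAR enzymes, which sequencing reads as G.

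The sequences below are those on which the results turn, as deposited tags written 5′ to 3′ with T for U. Capitals mark the seed, bases 2 to 8, which pairs with target mRNAs. The first 5 are the most-read members.
miR-382: gAAGTTGTtcgtggtggattcg
miR-485: aGAGGCTGgccgtgatgaattc
miR-541: aAGGGATTctgatgttggtcacact
miR-379: tGGTAGACtatggaacgtagg
miR-134: tGTGACTGgttgaccagagggg
The next 3 are the member with the lowest ratio of the 29 that reached 10 reads in a library and the 2 with intervals above 0.
miR-154: tAGGTTATccgtgttgccttcg
miR-369-5p: aGATCGACcgtgttatattcgc
miR-410: aATATAACacagatggcctgt
The last 4 carry altered bases or shifted starts, and the final one begins 1 base before the named start of miR-411.
miR-300: tATGCAAGggcaagctctcttc
miR-381: tATACAAGggcaagctctctgt
miR-411: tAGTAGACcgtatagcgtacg
miR-411 with the earlier start: aTAGTAGAccgtatagcgtacg

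The 35 members had 33 distinct seeds. miR-379 shared its seed with miR-1193-5p, and miR-381 shared its seed with miR-539-3p. For 31 members the first 18 nucleotides matched the genome perfectly at a single place. The exceptions were miR-299, miR-381, miR-541 and miR-544-5p.

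The cluster took a smaller share of the old library than of the young one. Its members summed to 43087 reads in the young library, 0.953% of all reads, and to 35088 in the old library, 0.527%. The old level was 0.553 times the young level (95% counting interval 0.545 to 0.561). Most of these reads came from miR-382, miR-485 and miR-541, which made up 75.03% of the cluster in the young library and 67.9% in the old. Without these 3 the ratio was 0.712 (0.693 to 0.731).

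Most known miRNAs took a smaller share of the old library too. The median log2 ratio, old over young, of the 29 members with at least 10 reads in a library was -0.72, and that of all 275 known miRNAs with such reads was -0.71. At least 2-fold lower in the old library were 9 of the 29 members, beside 30.5% of the known miRNAs. At least 2-fold higher were 0 members, beside 2.18% of the known miRNAs. miR-544-5p, with 38 reads in the young library and 28 in the old, lay just outside the 2-fold limit at 0.501 times, and miR-382 just inside it at 0.473 times. The random sampling model of DEGseq, the study's own test, gave p under 0.05 with a lower level for 21 members and with a higher level for 2, beside 67.3% and 9.45% of the known miRNAs. After Benjamini-Hochberg adjustment over all known miRNAs and star sequences with a tag the count stayed at 23 members, by this model and by the exact binomial test. In each direction the members' share lay near that of the known miRNAs.

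How the libraries are scaled decides the direction for much of the cluster. Total reads put 23 of the 29 members lower and 6 higher, and put 80% of the known miRNAs lower, a near share. TMM factors, which assume that most miRNAs are level, put 14 members lower and 15 higher. For the depths other than total reads, the share of known miRNAs in each direction is not given here. TMM added 0.73 to every log2 ratio and DESeq2's size factors added 0.67, which places the median of known miRNAs at 0.02 and -0.04. The members with p under 0.05 by the random sampling model split into 8 lower and 11 higher under TMM. Under DESeq2's factors the split was 11 and 11, and with a depth without let-7 it was 15 and 6. Under the 5 depths tried, 14 members were lower under each and 5 were higher under each (miR-411, miR-487b, miR-539-3p, miR-369-5p and miR-410). These directions are those of the ratio alone, whatever its interval, and of reads with the first 18 nucleotides unchanged. The exact tag of miR-411 alone stood at a log2 ratio of -0.0096 by total reads. By total reads, the intervals of miR-411, miR-487b and miR-539-3p held 0, the last with 9 young and 14 old reads (-1.23 to 1.47). The other 10 of the 29 members changed direction with the depth, miR-379, miR-543 and miR-381 among them. All ratios that follow are by total reads.

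**Figure D1:**
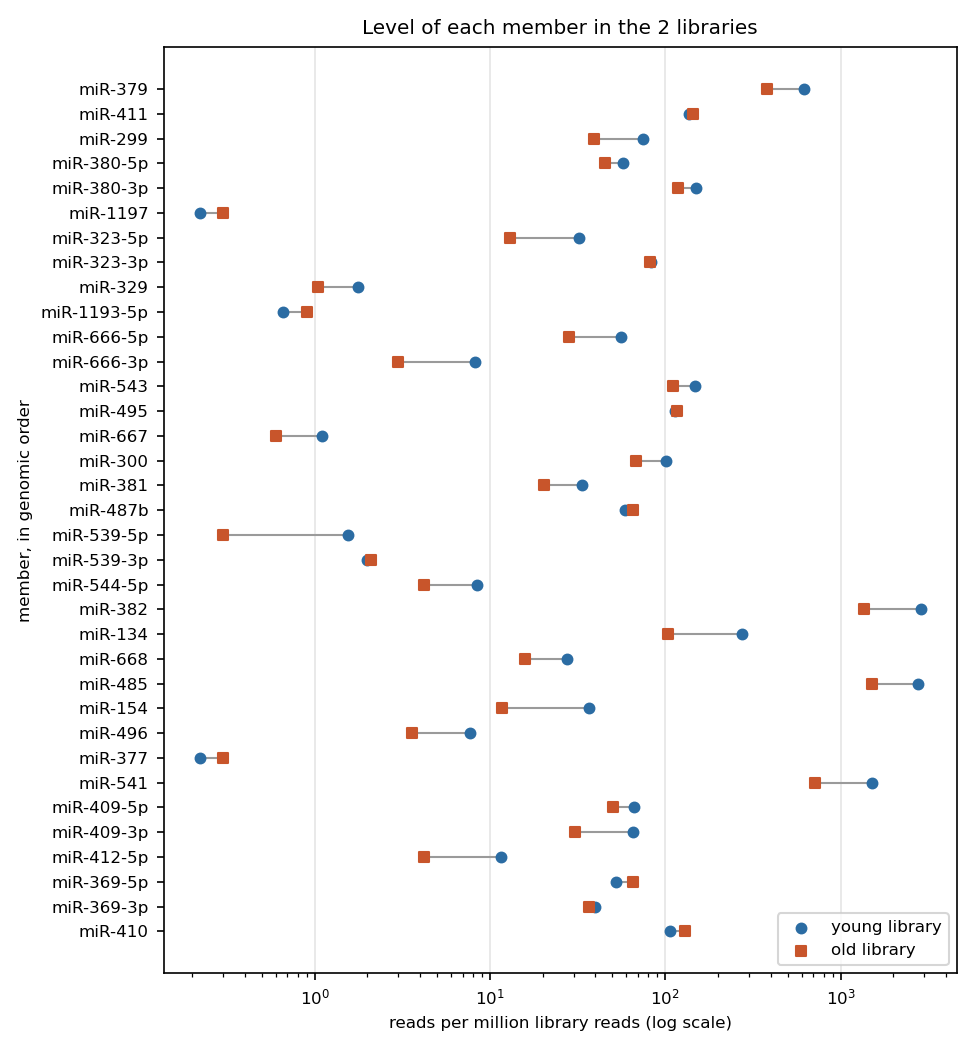
RPM (log axis) of the 35 members in genomic order, with a circle for the young library and a square for the old. miR-382, miR-485 and miR-541 stand above the rest in both libraries, and miR-1197 and miR-377 lie lowest in the young library with 1 read each.

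The 3 most-read members were lower in the old library than in the young, under each of the 5 depths. miR-382 had 12991 reads in the young library and 9038 in the old, or 2872 and 1357 RPM. miR-485, which acts on SV2A, had 12521 and 10046 reads, or 2768 and 1509 RPM. miR-541 had 6817 and 4734 reads, or 1507 and 711 RPM. Their log2 ratios were -1.08 (-1.12 to -1.04), -0.88 (-0.91 to -0.84) and -1.08 (-1.14 to -1.03), and all 3 intervals lay below the median of known miRNAs. miR-382 was first and miR-485 second in the young library, and in the old library the order of the pair was the reverse.

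miR-134, the regulator of dendritic spines, was lower under each depth as well. It had 1247 reads in the young library and 689 in the old, a log2 ratio of -1.41 (-1.55 to -1.28). Of the 6 members studied at synapses and dendrites (miR-134, miR-329, miR-381, miR-382, miR-485 and miR-495), 5 had at least 10 reads and 2 of these were at least 2-fold lower, beside 30.5% of all known miRNAs, with a median log2 ratio of -0.88. miR-381, a dendrite growth miRNA, had 151 and 135 reads, at -0.72. miR-495 had 513 and 772 reads, at 0.03 with an interval from -0.13 to 0.20. The synaptic set therefore held both the low and the level end of the cluster.

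The miR-379 group, which is related by sequence, was mixed. miR-379 itself had 2805 reads in the young library and 2523 in the old, at -0.71, the same as the median of known miRNAs. miR-411, its neighbour, had 616 and 961 reads, at 0.08 (-0.06 to 0.23). miR-380-5p had 261 and 300 reads, at -0.36. The lowest of the 4 was miR-323-5p, with 145 and 87 reads, at -1.29.

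The miR-154 family, of which 10 members are 3′ arms, held several members near or above an equal share of reads. Of its 9 with at least 10 reads, 2 were at least 2-fold lower, beside 30.5% of all known miRNAs, and the median log2 ratio was -0.12. miR-410 had 484 reads in the young library and 862 in the old, at 0.27 (0.11 to 0.44). miR-487b had 265 and 437 reads, at 0.16 (-0.06 to 0.39). miR-323-3p had 82.7 RPM in the young library and 81.5 in the old, at -0.02. Of these 3, miR-410 alone had an interval wholly above 0. The 2 that were at least 2-fold lower were miR-409-3p, at 65.9 and 30.6 RPM (log2 ratio -1.10), and miR-496, with 35 and 24 reads (-1.10). miR-381 stood at -0.72, as given above, and miR-300 at 101 and 68.0 RPM (-0.56). miR-369-3p had 181 and 245 reads, at -0.12.

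Of the remaining members with at least 100 reads, miR-154 had the lowest ratio. It had 167 reads in the young library and 78 in the old, at -1.66 (-2.06 to -1.26). miR-299 stood at 74.5 and 39.2 RPM, at -0.93, and miR-666-5p had 254 and 189 reads, at -0.98. miR-668 had 125 and 105 reads, at -0.81. Nearer to an equal share were miR-543, with 670 and 736 reads, at -0.42, and miR-380-3p, with 675 and 783, at -0.34. miR-409-5p had 301 and 336 reads, at -0.40. miR-369-5p had the highest ratio, 52.6 RPM in the young library and 65.2 in the old, at 0.31 (0.08 to 0.54). The other 11 members had 3 to 80 reads over both libraries, the fewest in miR-1197 and miR-377 and the most in miR-412-5p, and 6 of the 11 had fewer than 10 in each library.

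**Figure D2:**
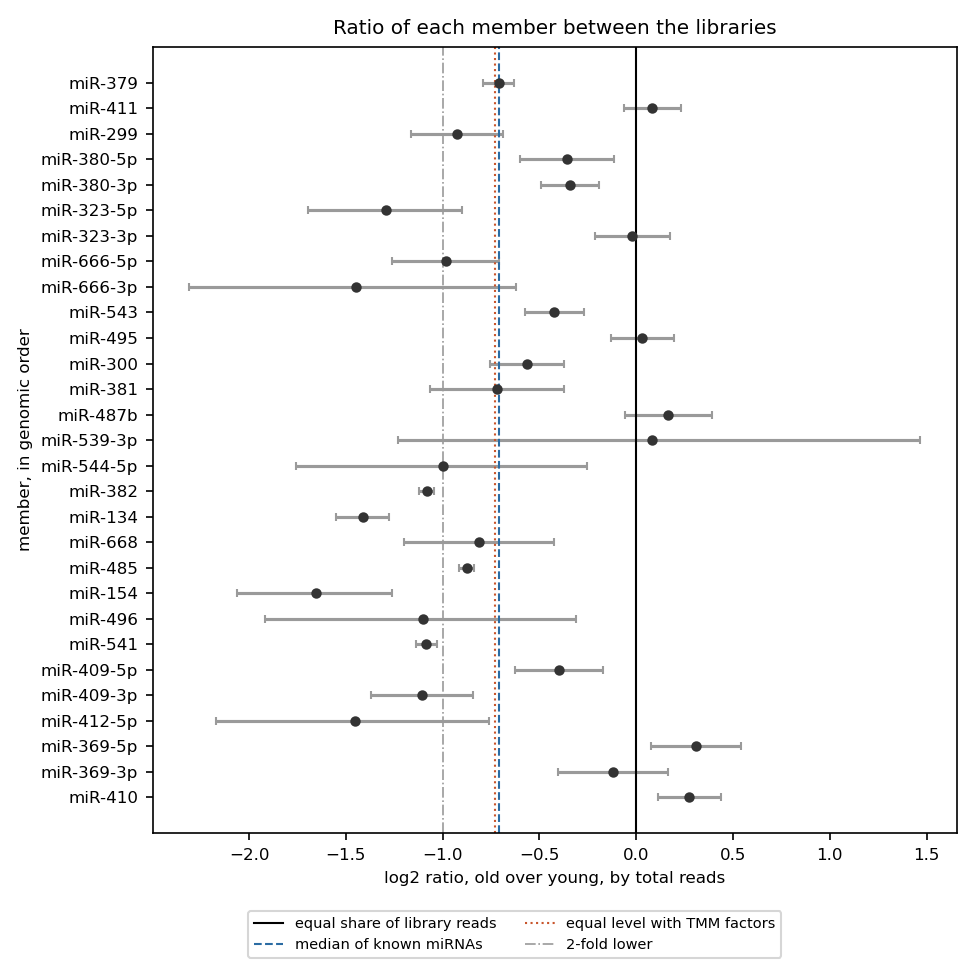
Log2 ratio, old over young by total reads, of the 29 members with at least 10 reads in a library, in genomic order, with 95% counting intervals as bars. The solid line marks an equal share of reads, the dashed line the median of known miRNAs at -0.71, the dotted line an equal level with TMM factors, and the dash-dotted line a 2-fold lower level. miR-154 lies lowest and miR-369-5p highest.

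The members differed among themselves by more than their counting error. The interval lay wholly below the median of known miRNAs for 8 of the 29 members, wholly above it for 11 and across it for 10. The share of the other known miRNAs in each of these classes is not given here, so these counts do not set the cluster apart. A like spread was seen outside the cluster. The quartiles of the members' log2 ratios were -1.08 and -0.12, and those of the 246 other known miRNAs were -1.09 and -0.19. By position, the first 17 members held 13 with at least 10 reads, with a median log2 ratio of -0.56, of which 2 were at least 2-fold lower. The last 18 held 16 such members, with a median of -0.94, of which 7 were, beside 30.5% of all known miRNAs. The difference by position or by arm was not tested. Members with names ending in -5p (7 with at least 10 reads) had a median of -0.98 and those ending in -3p (6) a median of -0.23. When names without a suffix were placed by their arm in the precursor, a choice made after seeing the data, miRNAs of 5′ arms (14 with at least 10 reads) had a median of -0.99 and those of 3′ arms (15) a median of -0.42.

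Base composition moved with the ratio. Across the 29 members the log2 ratio was lower at a higher share of G and C in the first 18 nucleotides (Pearson's r = -0.50, Spearman's rho = -0.50, across miRNAs from the same 2 libraries). The other 246 known miRNAs had r = -0.52 and rho = -0.53. The 16 members with at least 50% G and C had a median log2 ratio of -0.96, with 7 of them at least 2-fold lower, and the 13 members below 50% had a median of -0.34, with 2. The known miRNAs outside the cluster lay near these, with a median of -0.98 and 49.2% at least 2-fold lower at 50% or more, and a median of -0.38 and 13.3% below 50%. The part of base composition in the ratios was not tested. Reads with an undetermined base made up 4.57% of the young library and 1.07% of the old. All of them are part of the library totals. The members' counts hold those undetermined only after the first 18 nucleotides, and leave out those undetermined within them.

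**Figure D3:**
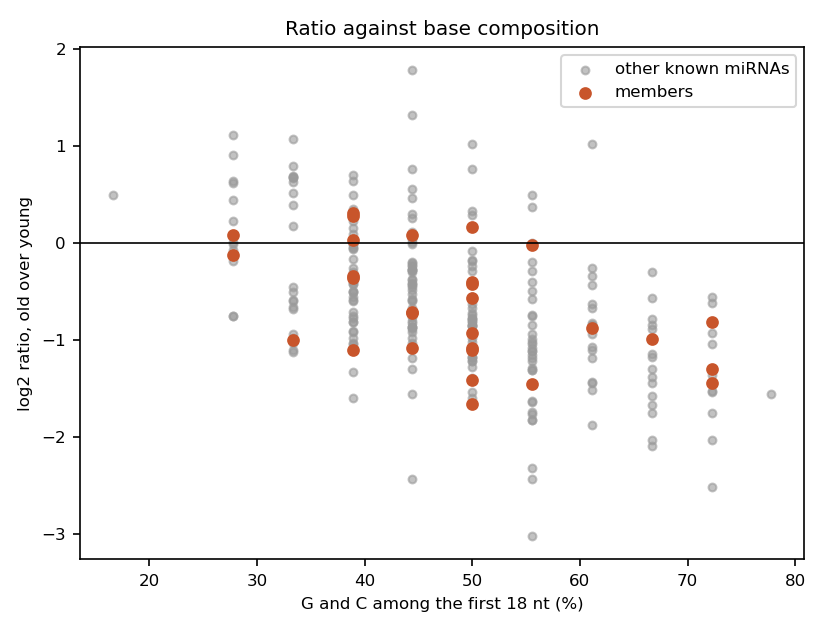
Log2 ratio, old over young, against the percentage of G and C among the first 18 nucleotides, for 29 members and 246 other known miRNAs with at least 10 reads in a library. Members lie within the spread of the other miRNAs, and in both sets the ratio is lower at higher G and C (r = -0.50 and -0.52).

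The opposite arms of the precursors did not always follow each other. Both arms could be compared in 7 precursors with at least 100 perfectly matching reads on each arm over both libraries. The share of the 3′ arm was higher in the old library in 4 of them (miR-382, miR-154, miR-323 and miR-485) and lower in miR-409, each with Wilson intervals that did not overlap, and in miR-380 and miR-369 the intervals overlapped. The miR-382 precursor had 13063 young and 9312 old reads on the 5′ arm and 1780 and 2869 on the 3′ arm. Its 3′ arm went from 11.99% to 23.6% of the precursor's reads. The log2 ratios were -1.05 for the 5′ arm and 0.13 for the 3′ arm. In the miR-154 precursor the 3′ arm went from 20.6% (42 reads) to 48.0% (71 reads). The opposite shift was seen in the miR-409 precursor, from 60.2% to 48.0%. The miR-329 precursor gave 904 young and 584 old reads on its 5′ arm, which is not a member, and 7 and 7 on the 3′ arm. Of the star partners of the cluster, 14 had a tag and 10 at least 10 reads, of which 6 were at least 2-fold lower and 3 were higher, with a median log2 ratio of -1.37. Of all 81 star sequences with such reads, 34.6% were at least 2-fold lower, with a median of -0.64. At least 2-fold higher were 0 of the partners, beside 2.47% of all star sequences.

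Of the cluster's summed reads, most ended elsewhere than the named tag, while 18 of the 35 members had over 50% of their reads in it. miR-485, with 9.82% of its reads in the exact tag, and miR-541, with 15.8%, weigh most in the sum, whereas miR-382 had 78.9%. The exact tags held 39.5% of the cluster's young reads and 39.2% of its old reads, and reads of other length that matched the genome held 43.1% and 42.6%. Ends that did not match the genome made up 17.4% and 18.2%, and where only the final base did not match, it was A in 48.3% and 47.6% of such reads and T in 48.4% and 48.0%. The named tag was the most-read one in 25 members. In miR-485 the most-read tag was 1 nucleotide longer, with 8296 young and 6734 old reads, and in miR-541 it was 4 shorter, with 1280 and 854.

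The 5′ start, which sets the seed, was shifted in some members and fixed in others. Among 25 members with at least 100 perfectly matching reads, 10 had at least 10% of these reads from starts 1 or 2 nucleotides away in both libraries, and 8 had under 1%. miR-300 had the largest share, 69.5% in the young library and 68.9% in the old, with its reads spread over the named start and the next 2. miR-411 had 57.6% and 66.0%, miR-668 had 56.6% and 58.8%, and miR-409-3p had 41.7% and 45.7%. In miR-496, with few reads, 22 young and 32 old reads were shifted, the latter 62.7%. miR-154, miR-380-5p and miR-409-5p had 0 shifted reads in both libraries. miR-382 lay close to the 10% limit, at 10.4% and 12.4%.

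The earlier start of miR-411 carried more reads than the named one. Unchanged reads with this start, whose seed is TAGTAGA, numbered 829 in the young library and 1828 in the old. Its log2 ratio was 0.58 (0.46 to 0.70), whereas the named start stood at 0.08. With all starts within 2 nucleotides, the log2 ratio of miR-411 was 0.37.

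**Figure D4:**
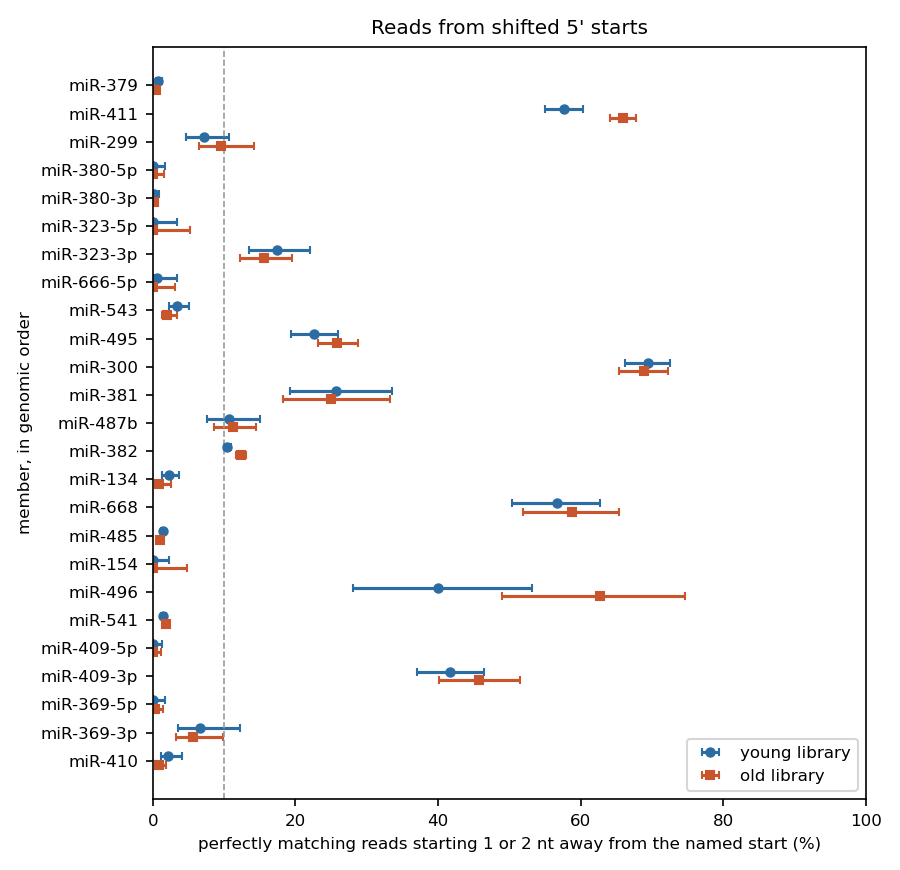
Percentage of perfectly matching reads that start 1 or 2 nucleotides from the named start, for 25 members with at least 100 such reads, with 95% Wilson intervals as bars. The dashed line marks 10%. miR-300, miR-411 and miR-668 lie above 50% in both libraries.

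Reads with G in place of a genomic A marked a few positions. Positions are counted from 1 at the 5′ end of the named tag. Of 96 A positions between 2 and 17 with at least 100 reads, in 23 members, 5 had G in at least 5% of the reads of both libraries. At none of these 96 positions was C or T read in 5% of both libraries. Leaving out miR-381, the 4 changed starts had no perfect match in the genome. The sequence of miR-379 with its site in capitals, and the read with the change, show the position.
miR-379 site: tggtAgactatggaacgtagg
miR-379 changed: tggtGgactatggaacgtagg
The corresponding pair for miR-411 follows.
miR-411 site: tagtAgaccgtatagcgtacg
miR-411 changed: tagtGgaccgtatagcgtacg

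The share of changed reads in miR-379 was lower in the old library. A5G, within the seed, was found in 558 of 3363 young reads, 16.6%, with a Wilson interval of 15.4 to 17.9. It was found in 267 of 2790 old reads, 9.57%, with an interval of 8.53 to 10.7. Fisher's exact test on the reads, two-sided, gave an adjusted p of 2.35e-15 over the 5 sites. In miR-411, A5G was found in 25.96% of 832 young reads and in 20.1% of 1203 old reads, with an adjusted p of 0.00521 by the same exact test. At the earlier start of miR-411 the same base is A6G, at 30.2% and 21.4%, with a p of 1.55e-08 by Fisher's exact test. The share was thus lower in the old library at both starts. Changed reads are not part of the ratios of miR-379 and miR-411 given above. With the A-to-G reads added, the summed log2 ratio of the cluster was -0.86, beside -0.85 without them.

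At the other 3 sites the intervals of the libraries overlapped or the named start alone did not measure a change. A7G in miR-300 was found in 8.08% of young and 10.1% of old reads, and A2G in miR-154 in 11 of 178 and 7 of 85 reads, 6.18% and 8.24%. The start of miR-381 with A4G is also the start of miR-300, so its 75.1% and 77.0% do not measure a change. Base 21 tells them apart, and among reads with the miR-381 base there, 13 young reads (8.90%) and 22 old reads (16.5%) had G at position 4, with a p of 0.0698 by Fisher's exact test. In the ratios above, these 13 and 22 reads count toward miR-300 and not miR-381. One other substitution, chosen after its values were seen, was T13G in miR-485, at 3.93% and 6.96%.

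**Figure D5:**
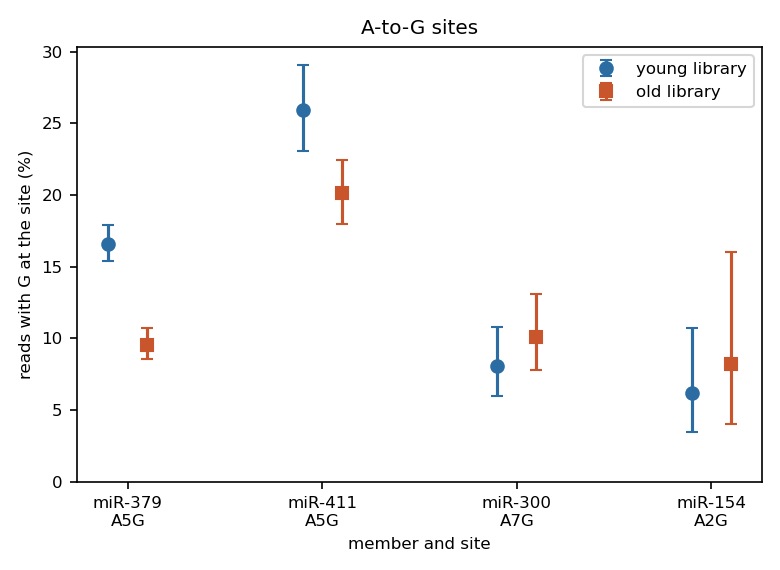
Percentage of reads with G at 4 A positions, for the young library (circles) and the old library (squares), with 95% Wilson intervals as bars. The miR-379 and miR-411 sites are lower in the old library, and the intervals of miR-300 and miR-154 overlap.

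Other miRNAs of the region and the markers give the setting. Around Rtl1, upstream on the same imprinted stretch, 12 mature miRNAs had a tag, with both arms of a precursor counted apart. At least 10 reads were found for 10 of them, of which 7 were at least 2-fold lower, beside 30.5% of all known miRNAs. Their median log2 ratio was -1.11. Of the miRNAs between or beside the members, 6 had at least 10 reads and 3 were at least 2-fold lower, beside the same 30.5%, with a median of -1.01. The other 3 were of the miR-376 family, with miR-376a at -0.50, miR-376b at 0.31 and miR-376c at 0.62. The neuronal marker miR-124 stood at 39418 RPM in the young library and 17001 in the old, and miR-9 at 4399 and 2989. The liver marker miR-122 was at 196 and 123 RPM, and miR-451 of red blood cells had 1155 and 901 reads. The muscle list, mainly miR-1, stood at 7495 and 10909. In the same order, the neuroendocrine list stood at 3841 and 2518 RPM, choroid plexus at 67.2 and 22.2, immune cells at 121 and 102 and epithelium at 81.1 and 59.6. Within the neuroendocrine list, which is mainly miR-7, miR-375 was at 45.8 and 9.16 RPM. Only miR-204 of the choroid plexus list had a tag. The 2 immune miRNAs with at least 10 reads went opposite ways, with log2 ratios of 0.52 (miR-142-5p) and -0.60 (miR-146a). The part of these levels in the members' ratios was not tested.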

How the data were processed

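Small RNA libraries of 1 young and 1 old brain sample were used. The authors trimmed the adapter, aligned reads to mm9 with SOAP and collapsed identical sequences, and the deposited values are raw read counts per distinct sequence, not normalized. Names came from the study's list of detected miRNAs, and a tag was assigned by its pair of counts (21 members), the RefSeq mature sequence (13) or hairpin (1). Members and lists were chosen with earlier results of these data known. Reads of tags sharing 18 nucleotides were summed, divided by total reads (4523267 and 6658732), with 0 set to 0.5 and a minimum of 10 reads. Named members have at least 100 reads. edgeR's quasi-likelihood test could not be fitted, since 0 residual degrees of freedom remain. Ratios have Clopper-Pearson intervals, shares Wilson intervals, both at 95% and for counting error only. Statistics were tested on simulated data. The miR-154 list covers 3′ arms, so 5′ arm members with its numbers were left out. Work used Python 3.11.15, scipy 1.17.1, R 4.3.3, edgeR 4.0.16 and DESeq2 1.42.0.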

Additional observations from a re-analysis of the deposited data

Results flagged for a closer look

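Precursors of 3 cluster numbers without a member still gave a few perfectly matching reads. These are reads of either arm, whereas a member needed a name without a star in the study's list. Mir494 gave 21 reads over both libraries, 7 young and 14 old. Mir758 gave 4 reads, all in the young library, and Mir679 gave 4 reads, 2 in each. Mir654 gave 0 reads in either library, and a count of 0 in a library allows up to 3.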

How the results depend on the processing

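Of 54 alternative values, 37 stayed within the limits set for a change, 16 moved and 1 reversed. The median log2 ratio of the members was -0.72, and TMM factors turned it to 0.0096 and DESeq2's size factors brought it to -0.046. It was -0.35 with a depth without let-7 and -0.42 among the members with a single tag of both counts. Both of these count among the 37 within the limits, although they lie nearer to an equal share. The members at least 2-fold apart numbered 9, and became 2 with TMM factors (both higher), 0 with DESeq2's size factors, 4 with a depth without let-7 and 5 among the members with a single tag of both counts. The median of known miRNAs moved with the depth too, to 0.02 with TMM factors, -0.04 with DESeq2's size factors and -0.34 without let-7. The members with p under 0.05 numbered 23 (21 lower and 2 higher). They split into 8 lower and 11 higher under TMM, 11 and 11 under DESeq2's factors and 15 and 6 without let-7. By their totals of 19, 22 and 21 these counts also lie among the 37, although the split by direction changed. Another test, edgeR's exact test with an assumed coefficient of variation, gave 11 members in all at 0.2, each lower, and 0 members at 0.4. For the counts under alternative settings, the share of all known miRNAs under the same setting is not given here. The summed log2 ratio of -0.85 became -0.92 with known-miRNA reads as depth, -0.13 with TMM factors, -0.18 with DESeq2's size factors, -0.48 without let-7, -0.73 with the GC correction, -0.81 with all starts within 2 nucleotides, -0.90 with undetermined reads added and -0.49 without the 3 most-read members. The last 3 were chosen after seeing the data. The A-to-G sites numbered 5, or 4 without miR-381, whose site does not measure a change. At a share of 10% they numbered 2, miR-381 among them. For the values that moved with the depth, the divisor itself sets the shift. For the others the cause was not tested. No paired analysis was possible because each age has 1 library, and for the same reason no replicate could be left out.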
